A study of Sus scrofa with 8 samples.

Results

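The genes described here encode globins and the enzymes that make and break down heme. They were chosen by name, and 9 of the 10 named genes were found among the 18975 genes listed: the globins *HBB* and *CYGB*, the synthesis enzymes *ALAS1*, *ALAS2*, *UROD* and *FECH*, and the breakdown enzymes *HMOX1*, *HMOX2* and *BLVRB*. *MB*, the myoglobin gene, had no row under that name and was not analysed here. RNA-seq was performed on heart tissue of male pigs aged 6 months, in 4 groups. TH were Tibetan pigs and YH Yorkshire pigs in the highland (Linzhi, Tibet), and TL were Tibetan pigs and YL Yorkshire pigs in the lowland (Beijing). Each group had 2 libraries, and each library pooled RNA from 4 pigs, so the spread within a group is a spread between pools. For both YL libraries, 1 label pointed to the data of TL, in conflict with title and breed, and these were followed here.

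Heme is an iron-containing ring that carries oxygen in hemoglobin and myoglobin and electrons in the cytochromes of the respiratory chain. Its synthesis begins in the mitochondrion with an ALA synthase, passes through the cytosol, where UROD acts, and ends in the mitochondrion, where PPOX oxidizes the ring and FECH inserts iron. Heme oxygenases open the ring and release iron, carbon monoxide and biliverdin, which biliverdin reductases turn into bilirubin. Cardiac muscle needs heme for its own mitochondria and myoglobin, whereas most hemoglobin mRNA is made in maturing red cells.

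Between 15686812 and 26722604 reads per library fell on genes. Levels are given as FPKM, the number of fragments on a gene relative to its transcript length and to the mapped fragments of the library. Of 12 cardiomyocyte markers listed, the 10 found in the table were all at 1 FPKM or more in every library. YL2 stood apart: its cardiomyocyte markers summed to 13793 FPKM against 22897 to 38968 in the other libraries. Its 13 kidney marker entries summed to 4772 FPKM against 1.14 to 17.8 in the others. The mitochondrially encoded genes held 57.7% (YH2) to 87.6% (TH1) of the summed FPKM. Every comparison with YL includes YL2, and values without it are given where a result rests on it.

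*HBB*, which encodes the beta chain of hemoglobin (ENSSSCG00000014725, chromosome 9, 5632714 to 5634344 in Sscrofa10.2), was by far the most abundant of the 9 genes, with a mean of 709 FPKM over the 8 libraries. *ALAS1* followed with 69 FPKM, *HMOX2* with 49.5, *FECH* with 20.6, *UROD* with 19.7, *BLVRB* with 11.7 and *CYGB* with 9.3. *HMOX1* (3.26 FPKM) and *ALAS2* (2.95 FPKM) were the least abundant. All 9 genes reached 1 FPKM in at least 2 libraries and were tested. The order of *FECH* and *UROD* was not the same in every group: *UROD* had the higher mean in TH and YL, and *FECH* in TL and YH.

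**Figure D1:**
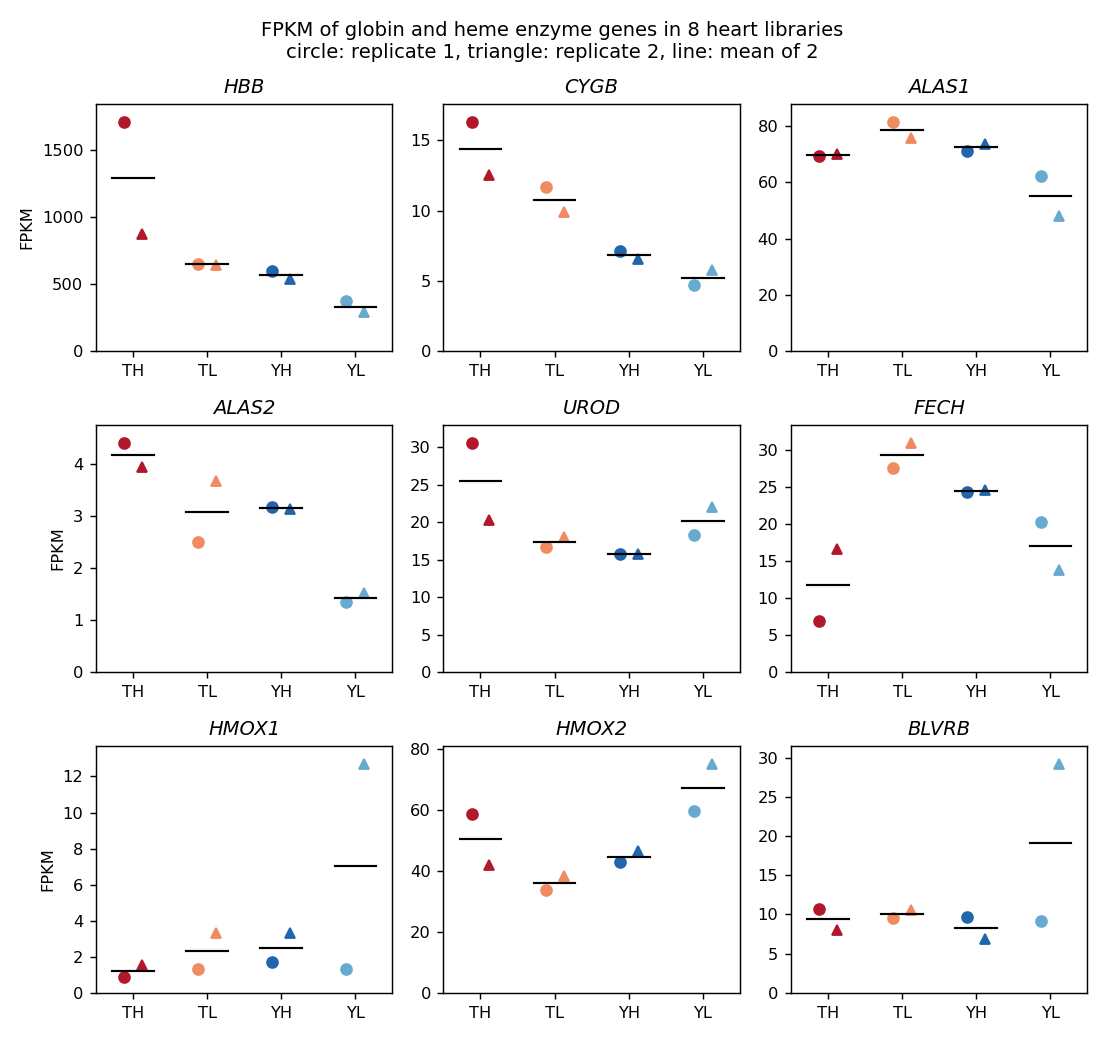
FPKM of the 9 genes (vertical axes from 0) in the 8 libraries by group (horizontal axes); circles are replicate 1, triangles replicate 2 and lines the mean of 2. *HBB* and *CYGB* step down from TH to YL without overlap between groups, *FECH* is lowest in TH, and *HMOX1* and *BLVRB* are highest in YL2.

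The level of *HBB* was 1708 FPKM in TH1 and 876 FPKM in TH2. It was 649 and 642 FPKM in TL, 599 and 534 FPKM in YH, and 374 and 290 FPKM in YL. No group overlapped another, and the groups followed the order TH, TL, YH, YL. TL and YH were the closest neighbours: the gap between their nearest libraries was smaller than the SD of 45.9 FPKM in YH. The reads behind these values numbered 3537 (YL1) to 17760 (TH1), so counting error was small beside the spread between the TH libraries (1292 FPKM ± 588, SD, n = 2).

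*HBB* was 2.28-fold higher in TH than in YH by the ratio of means, and 1.94-fold higher in TL (646 FPKM ± 4.65, SD, n = 2) than in YL (332 FPKM ± 59.7). On the log2(FPKM + 1) scale used for all tests, these differences were 1.11 (SE 0.37, 95% interval 0.23 to 1.99; limma, adjusted p = 0.238) and 0.97 (SE 0.37, 0.09 to 1.85; adjusted p = 0.505). Between altitudes, *HBB* was 2-fold higher in TH than in TL, a log2 difference of 0.92 (0.04 to 1.80; limma, adjusted p = 0.421). In the Yorkshire pigs the same step from lowland to highland was 1.71-fold, a log2 difference of 0.78 (-0.10 to 1.66; limma, adjusted p = 0.784). The altitude differences of the breeds were themselves set against each other as an interaction, which was 0.14 for *HBB* with a wide interval from -1.11 to 1.39. Its sign turned to -0.34 without TH1, and it was 0.62 without TH2. None of these passed the threshold of an adjusted p under 0.01 with a log2 fold change over 1. TH1 weighed on both comparisons with TH: without it the log2 difference was 0.63 from YH and 0.44 from TL, and without TH2 it was 1.59 and 1.4.

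*CYGB*, the gene of cytoglobin, a globin found in fibroblasts and other tissue cells (ENSSSCG00000017181, chromosome 12, 4829968 to 4840020), followed the same order of groups at a far lower level. It was at 16.3 and 12.5 FPKM in TH, 11.7 and 9.86 FPKM in TL, 7.14 and 6.52 FPKM in YH, and 4.68 and 5.76 FPKM in YL. Again no group overlapped another, although TH and TL were separated by less than the SD of 2.67 FPKM in TH. YH and YL were also close, at 6.52 and 5.76 FPKM in their nearest libraries, with an SD of 0.765 FPKM in YL.

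The breed difference of *CYGB* was nearly the same at each altitude, 2.11-fold between TH and YH and 2.06-fold between TL and YL. On the log2 scale these were 0.96 (SE 0.22, 0.44 to 1.49; limma, adjusted p = 0.141) and 0.92 (SE 0.22, 0.39 to 1.45; adjusted p = 0.296), and the unadjusted p-values, 0.00364 and 0.00461, were the smallest of the 9 genes in their comparisons. The altitude differences were smaller, 0.38 between TH and TL and 0.34 between YH and YL (limma, adjusted p = 0.565 and 0.784). Without TH1 the former was 0.20, and without YL1 the latter was 0.21. The interaction was 0.04 (-0.70 to 0.79), and its sign turned with single libraries left out (-0.13 without TH1 and 0.22 without TH2). The summed FPKM of 13 fibroblast marker entries was 264 and 813 in the TH libraries, 921 and 726 in those of TL, 415 and 498 in those of YH, and 351 and 290 in those of YL. Among these entries, *LUM*, 1 of *COL1A2* and 1 of *PDGFRB* had all Tibetan above all Yorkshire libraries, as *CYGB* did. The summed FPKM of 6 endothelial markers was 203 and 194 in TH libraries, 169 and 179 in those of TL, 162 and 173 in those of YH, and 120 and 99.2 in those of YL, and *PECAM1* among them had the same order of groups without overlap as *CYGB* and *HBB* (96.8 and 84.5 FPKM in TH, 52 and 35.7 FPKM in YL). *LUM*, *COL1A2*, *PDGFRB* and *PECAM1* were picked out after their values were seen. Other markers went the other way: 7 of 12 fibroblast entries tested and 3 of 6 endothelial markers were lower in TH than in YH. In TL against YL, 12 of the 12 and 5 of the 6 were higher. Among the endothelial markers, *VWF*, *TEK* and *KDR* were lower in TH than in YH without overlap (log2 differences -1.90, -0.79 and -0.49). The part of these cells in the *CYGB* differences was not tested.

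Of the 11913 genes tested, 0.453% (54 genes) had 4 groups that did not overlap in the order TH, TL, YH, YL, and *HBB* and *CYGB* were 2 of them. In any order, 2.54% of the genes had no overlap among the groups, which included *ALAS1* as well. The order depended on scaling. When libraries were scaled by median ratios, *HBB* kept it and *CYGB* did not, and when each library was divided by its FPKM sum neither did.

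Other hemoglobin genes lay beside *HBB*. *HBA*, the alpha chain gene, was at 1376 and 745 FPKM in TH, 581 and 754 FPKM in TL, 459 and 490 FPKM in YH, and 256 and 231 FPKM in YL. *HBM*, which encodes the minor mu chain, was at 15.1 and 6.43 FPKM in TH, 5.61 and 6.95 FPKM in TL, 4.64 and 4.05 FPKM in YH, and 2.16 and 1.8 FPKM in YL. All 4 Tibetan libraries lay above all 4 Yorkshire libraries for *HBB*, *CYGB*, *HBA* and *HBM*, as for 4.57% of all genes tested, while TH and TL overlapped in *HBA* and *HBM*. This separation of the breeds was kept with median-ratio scaling and lost in all 4 genes with scaling to the FPKM sum. The log2 differences of *HBA* were 1.09 between TH and YH and 1.44 between TL and YL (limma, adjusted p = 0.228 and 0.296), and the former was 0.65 without TH1 and 1.53 without TH2.

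The ratio of *HBA* to *HBB* stayed between 0.683 (YL1) and 1.17 (TL2), whereas *HBB* itself varied 5.89-fold between its lowest and highest library. *HBA* was also the gene most like *HBB* among 4155 candidates, with a root mean square difference of 0.21 between their centred log2 values over the 8 libraries. It was followed by *TMSB10*, a thymosin gene, and *C9ORF89*, both with 0.24. Hemoglobin genes have near-identical copies, and how reads were divided among them could affect these values. Of the 11 other globin names searched, 5 were in the table, and the 3 beside *HBA* and *HBM* did not exceed 0.192 FPKM in any library.

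**Figure D2:**
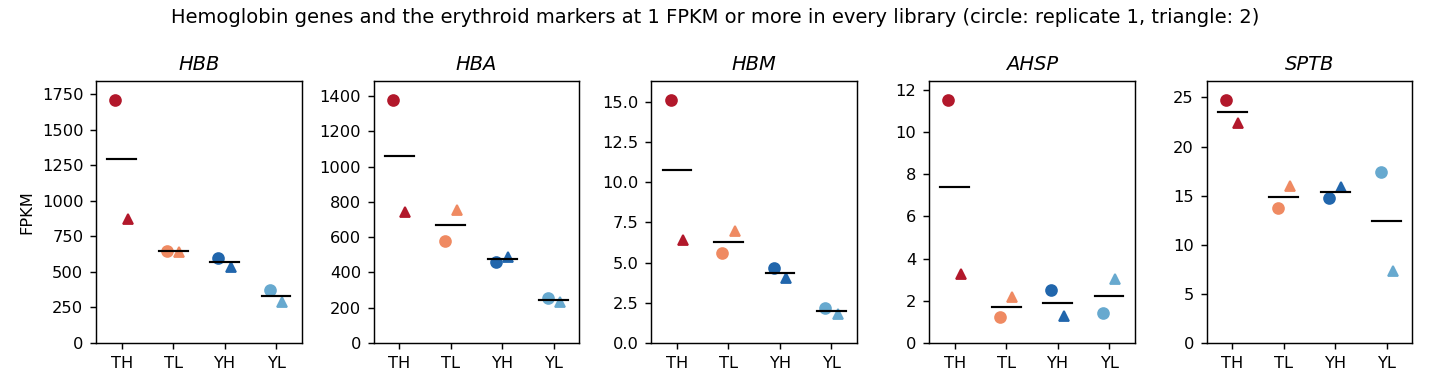
FPKM (vertical axes from 0) of the hemoglobin genes *HBB*, *HBA* and *HBM* and the erythroid markers *AHSP* and *SPTB* by group (horizontal axes); circles are replicate 1, triangles replicate 2 and lines the mean of 2. The hemoglobin genes are lowest in YL, where *HBB* is at 374 and 290 FPKM, while *AHSP* and *SPTB* are highest in TH and show no step from TL to YH.

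Of 12 red cell markers, 9 were in the table, and their summed FPKM was 36.4 and 26 in the TH libraries, 15.1 and 18.5 in those of TL, 17.5 and 17.5 in those of YH, and 19.1 and 20.5 in those of YL. *AHSP*, whose product stabilizes free alpha chains, was at 11.5 and 3.28 FPKM in TH and between 1.24 and 3.04 FPKM in the other libraries. *SPTB*, the gene of erythroid beta spectrin, which muscle also expresses, was at 24.7 and 22.4 FPKM in TH and between 7.36 and 17.4 FPKM elsewhere. Both were highest in TH, as *HBB* was. In YL2 the sum included 5 FPKM of *TFR2* and 5.07 FPKM of *SLC4A1*, which were at most 0.101 FPKM in every other library.

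Apart from *AHSP* and *SPTB*, the red cell markers in the table were at or near 0 in every library but YL2. *KLF1*, *GATA1*, *RHAG*, *EPB42* and *CA1* did not exceed 0.226 FPKM in any library. *SLC4A1*, the anion exchanger of the red cell membrane and of kidney, was at most 0.0546 FPKM except in YL2, where it was at 5.07 FPKM. In bulk tissue, more cells of a type, such as blood cells left in the heart, and more RNA per cell cannot be told apart, and the part of red cells in the *HBB* difference was not tested.

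*ALAS1* and *ALAS2* encode the enzyme of the rate-limiting step of heme synthesis, *ALAS1* in all tissues and *ALAS2* in erythroid cells. *ALAS1* (ENSSSCG00000011437, chromosome 13, 37657826 to 37667061) exceeded *ALAS2* 15.8-fold (TH1) to 46.4-fold (YL1). The annotation of the table describes its *ALAS1* entry as a pseudogene, so the entry may not hold the reads of a coding gene alone.

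*ALAS1* was the steadiest of the 9 genes, with a 1.7-fold range. It was at 69.3 and 70 FPKM in TH, 81.5 and 75.8 FPKM in TL, 71.1 and 73.8 FPKM in YH, and 62.3 and 47.9 FPKM in YL. TL was the highest group and YL the lowest, a 1.43-fold difference and 0.52 on the log2 scale (SE 0.22, 0.00 to 1.03; limma, adjusted p = 0.555). Without YL2 it was 0.33. Between TH and YH the log2 difference was -0.06, with an interval from -0.57 to 0.46.

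*ALAS2* (ENSSSCG00000012347, chromosome X, 53807664 to 53832133) was low throughout. It was at 4.4 and 3.93 FPKM in TH, 2.49 and 3.66 FPKM in TL, 3.16 and 3.13 FPKM in YH, and 1.34 and 1.52 FPKM in YL. YL lay below every other library, while TL and YH overlapped. YL was lower by 2.15-fold than TL and by 2.2-fold than YH, or 0.73 (SE 0.22, 0.21 to 1.25; limma, adjusted p = 0.374) and 0.77 (SE 0.22, 0.25 to 1.29; adjusted p = 0.691) on the log2 scale. The 47 (YL1) to 191 (TL2) reads behind *ALAS2* make its values less precise than those of *HBB*. *ALAS2* and *HBB* shared the lowest group and the highest group, with a ratio of *HBB* to *ALAS2* between 171 (YH2) and 389 (TH1).

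*FECH* encodes ferrochelatase, which completes heme by inserting iron (ENSSSCG00000004541, chromosome 1, 117466661 to 117488052). It was at 6.88 and 16.6 FPKM in TH, 27.6 and 31 FPKM in TL, 24.3 and 24.6 FPKM in YH, and 20.3 and 13.8 FPKM in YL. By mean, the group with the most *HBB* had the least *FECH*, and every library of TL and YH lay above every library of TH and YL.

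The TH mean of 11.7 FPKM ± 6.87 (SD, n = 2) was 0.4 times that of TL (29.3 FPKM ± 2.36) and 0.48 times that of YH (24.4 FPKM ± 0.227). The log2 difference was -1.36 from TL (SE 0.39, -2.29 to -0.44; limma, adjusted p = 0.291) and -1.11 from YH (-2.04 to -0.18; adjusted p = 0.247). In the Yorkshire pigs the altitude difference had the opposite sign, 0.52 (limma, adjusted p = 0.79), and without YL2 it was 0.25. The interaction of breed and altitude was -1.88 (SE 0.55, -3.19 to -0.57; limma, unadjusted p = 0.0117, adjusted p = 0.357). It was the largest interaction among the 9 genes but did not pass after adjustment. TH1, with 155 reads on *FECH*, was the lowest library, and without it the interaction was -1.30 and the differences from TL and YH were -0.78 and -0.53.

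*UROD* encodes uroporphyrinogen decarboxylase, a cytosolic enzyme of the middle of the pathway (ENSSSCG00000003922, chromosome 6, 153911565 to 153915019). It varied the other way: 30.6 and 20.3 FPKM in TH, 16.7 and 18 FPKM in TL, 15.8 and 15.7 FPKM in YH, and 18.3 and 22 FPKM in YL. TH was 1.61-fold higher than YH, a log2 difference of 0.63 (SE 0.25, 0.05 to 1.22; limma, adjusted p = 0.286), which was 0.35 without TH1 and 0.91 without TH2. The interaction was 0.83 (SE 0.35, 0.00 to 1.66; limma, adjusted p = 0.455), and it was 0.55 without TH1 and 1.11 without TH2. TL and YL lay close together, at 18 and 18.3 FPKM in their nearest libraries.

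Among other enzymes of heme synthesis, *PPOX*, protoporphyrinogen oxidase, which acts just before FECH, was at 11.4 and 10.8 FPKM in TH, 16.3 and 13.5 FPKM in TL, 13.1 and 12.9 FPKM in YH, and 10.5 and 12.6 FPKM in YL. As with *FECH*, its TL and YH libraries lay above its TH and YL libraries, by a smaller margin (interaction -0.56, SE 0.28; limma, adjusted p = 0.52). *UROS* (uroporphyrinogen III synthase) and *CPOX* (coproporphyrinogen oxidase) had mean levels of 21.7 and 6.69 FPKM. None of these 3 genes was called in any of the 4 comparisons, and 0 had an unadjusted limma p under 0.05.

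A separation of TL and YH from TH and YL in every library was seen in *FECH* and *ALAS1* (TL and YH higher) and in *UROD* (TL and YH lower), 3 of the 9 genes, and in *PPOX*. This pattern was picked out after the values were seen, and it was found in 5.78% of all genes tested, 3.86% with TL and YH higher and 1.92% with them lower. With median-ratio scaling it was kept by *FECH* and *ALAS1*, and with scaling to the FPKM sum by none of the 4.

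**Figure D3:**
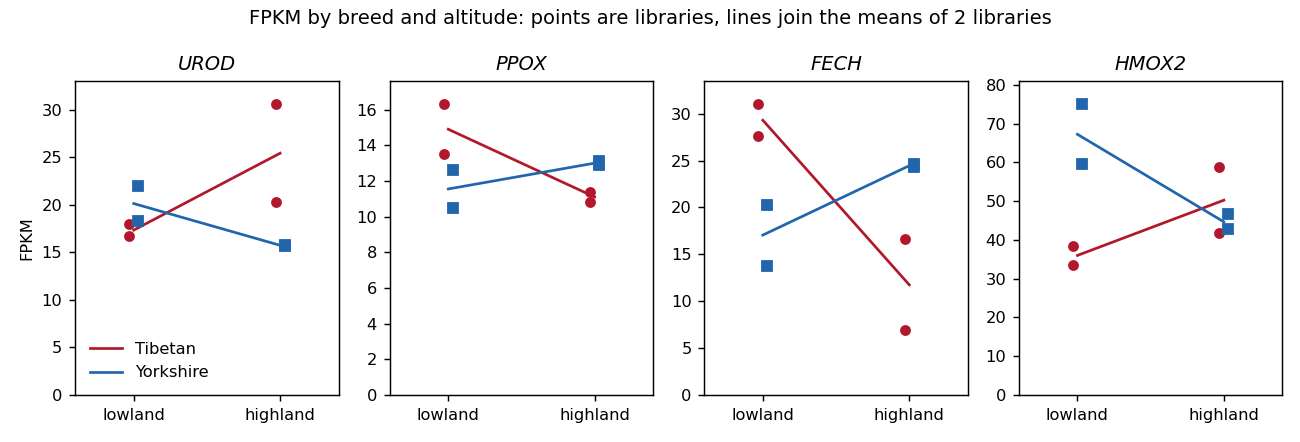
FPKM (vertical axes from 0) of *UROD*, *PPOX*, *FECH* and *HMOX2* in lowland and highland pigs (horizontal axes) of each breed; points are libraries and lines join the means of 2 libraries. The lines of the breeds cross in all 4 panels, and in *FECH* the means are 29.3 FPKM in TL and 11.7 FPKM in TH.

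*HMOX2* encodes the constitutive heme oxygenase (ENSSSCG00000007942, chromosome 3, 38895255 to 38922993) and *HMOX1* the inducible enzyme, which rises with heme, oxidative stress and inflammation. *HMOX2* exceeded *HMOX1* in every library, from 5.89-fold (YL2) to 66.6-fold (TH1). It was at 58.7 and 41.8 FPKM in TH, 33.6 and 38.4 FPKM in TL, 42.7 and 46.6 FPKM in YH, and 59.5 and 75 FPKM in YL.

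YL was the highest group for *HMOX2* and TL the lowest. The ratio of TL to YL was 0.536, a log2 difference of -0.88 (SE 0.25, -1.47 to -0.28; limma, unadjusted p = 0.0103, adjusted p = 0.351). Without YL2 it was -0.71, so the difference did not rest on that library alone. TH and YH overlapped (log2 difference 0.15, -0.45 to 0.74), and the sign of their difference turned to -0.09 without TH1, while it was 0.39 without TH2. The interaction was 1.02 (SE 0.35, 0.18 to 1.86; limma, adjusted p = 0.391), opposite in sign to that of *FECH*.

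*HMOX1* (ENSSSCG00000026759, scaffold GL894747.1, 3545 to 9948) was near the limit of what this depth could measure, with 19 to 110 reads in 7 libraries. It was at 0.882 and 1.54 FPKM in TH, 1.31 and 3.3 FPKM in TL, 1.72 and 3.31 FPKM in YH, and 1.33 and 12.7 FPKM in YL. YL2 alone stood out, with 449 reads. The log2 difference between TL and YL was -0.84 (SE 0.79, -2.71 to 1.03; limma, adjusted p = 0.791). Without YL2 its sign turned to 0.44, and that of YH to YL from -0.72 to 0.56. Between TH and YH, where YL2 is not compared, *HMOX1* was lower in TH without overlap, a log2 difference of -0.65 with an interval from -2.52 to 1.22. It was -0.43 without TH1, -0.98 without YH1 and -0.31 without YH2. Macrophages, which clear heme with HMOX1, were followed by 10 of 12 markers in the table: their summed FPKM was 43.1 and 61.7 in the TH libraries, 118 and 120 in those of TL, 106 and 123 in those of YH, and 107 and 71.6 in those of YL. *CD163*, their hemoglobin scavenger receptor, did not exceed 0.0777 FPKM. *C1QA* was at 4.49 and 13.1 FPKM in TH and 33.9 and 34.1 FPKM in YH. *C1QC* was at 6.17 and 20.4 FPKM in TH and 44 and 46.4 FPKM in YH. These 2 genes weighed heavily on the sums. Of 8 macrophage markers tested, 5 were lower and 3 higher in TH than in YH, and *AIF1*, *CD14*, *CD68* and *MSR1* overlapped. The part of macrophages in the *HMOX1* difference between TH and YH was not tested.

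*BLVRB*, a biliverdin and flavin reductase that is abundant in red cells (ENSSSCG00000021067, chromosome 6, 44463595 to 44476850), was at 10.7 and 8.07 FPKM in TH, 9.55 and 10.6 FPKM in TL, 9.62 and 6.9 FPKM in YH, and 9.14 and 29.2 FPKM in YL. Apart from YL2, its libraries stayed within 6.9 to 10.7 FPKM, with overlap between groups. The log2 difference between YH and YL was -0.94 (SE 0.49, -2.09 to 0.22; limma, adjusted p = 0.784), and without YL2 it was -0.15. That between TL and YL was -0.66, and without YL2 it was 0.13. Unlike *HBB*, *BLVRB* did not separate the Tibetan from the Yorkshire libraries.

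*BLVRA*, the main adult biliverdin reductase, was also highest in YL2, at 19 FPKM against 4.47 to 8.58 FPKM in the others. A level in YL2 more than 2 times that of every other library was found in *HMOX1* and *BLVRB*, 2 of the 9 genes, and in 6.48% of all genes tested. The genes most like *HMOX1* were *GK* (glycerol kinase) and *PCCB* (a subunit of propionyl-CoA carboxylase), both with a root mean square difference of 0.31, and *TMBIM6*, with 0.34, and YL2 was the highest library of each. The kidney markers were high in the same library, and their part in the level of these genes was not tested.

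No gene of the 9 was called in any comparison with limma at the threshold given above. Few genes were called at all: 0.0336% of those tested between TH and YH, 0.00839% between TL and YL, 0.0504% between TH and TL, 0% between YH and YL, and 0.0336% in the interaction. At an unadjusted p under 0.05, 4 of the 9 differed between TH and YH, where 16.2% of all genes did. *HBB*, *CYGB* and *UROD* were higher in TH and *FECH* was lower. This count depended on the libraries fitted. Without TH1 the log2 differences of *HBB*, *CYGB*, *UROD* and *FECH* were 0.63, 0.79, 0.35 and -0.53. Without TH2 they were 1.59, 1.14, 0.91 and -1.69. Leaving out YH1 or YH2 moved them less (to 1.19 or 1.03 in *HBB*), but YH then held only 1 library. Between TL and YL, 5 of the 9 did, against 8.94% of all genes: *HBB*, *CYGB*, *ALAS1* and *ALAS2* were higher in TL and *HMOX2* was lower. That count also depended on the libraries fitted. Without YL2 the log2 differences of these 5 genes, in the same order, were 0.78, 1.05, 0.33, 0.78 and -0.71. Without YL1 they were 1.15, 0.79, 0.70, 0.68 and -1.04.

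Between TH and TL, 2 of the 9 had an unadjusted p under 0.05, *HBB* (higher in TH) and *FECH* (lower), against 11.3% of all genes. Between YH and YL it was *ALAS2* alone, against 5.97%, and in the interaction it was *FECH*, *HMOX2* and *UROD*, against 10.9%. With 1 library left out, the count between TH and TL was 1 without TH1, TL1, YH1 or YH2, 0 without TL2 and 4 without TH2, and it was 1 when only the 4 libraries compared were fitted. That between YH and YL was 3 without TH1 or TH2, 5 without YL1, 3 with median-ratio scaling and 2 without the filter on low values. The count of 3 in the interaction was 1 without TL1, TL2, YH1, YH2 or YL2 and 6 without YL1. When each library was divided by its FPKM sum, the count was 1 in the interaction and in each comparison but YH to YL, where it was 0. The TH libraries and the YL libraries each enter 2 of the comparisons, as do those of TL and YH, so these counts are not independent.

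Groups that did not overlap were common in these data. Between TH and YH, 7 of the 9 genes did not overlap, against 52.5% of all genes. The same number, 7 of the 9, did not overlap between TL and YL (41.5% of all genes), between TH and TL (48.5%) and between YH and YL (36.3%). The median log2 difference of the 9 genes was 0.17, 0.52, 0.36 and 0.34 in these comparisons, and that of all genes tested was -0.03, 0.02, -0.02 and 0.03.

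**Figure D4:**
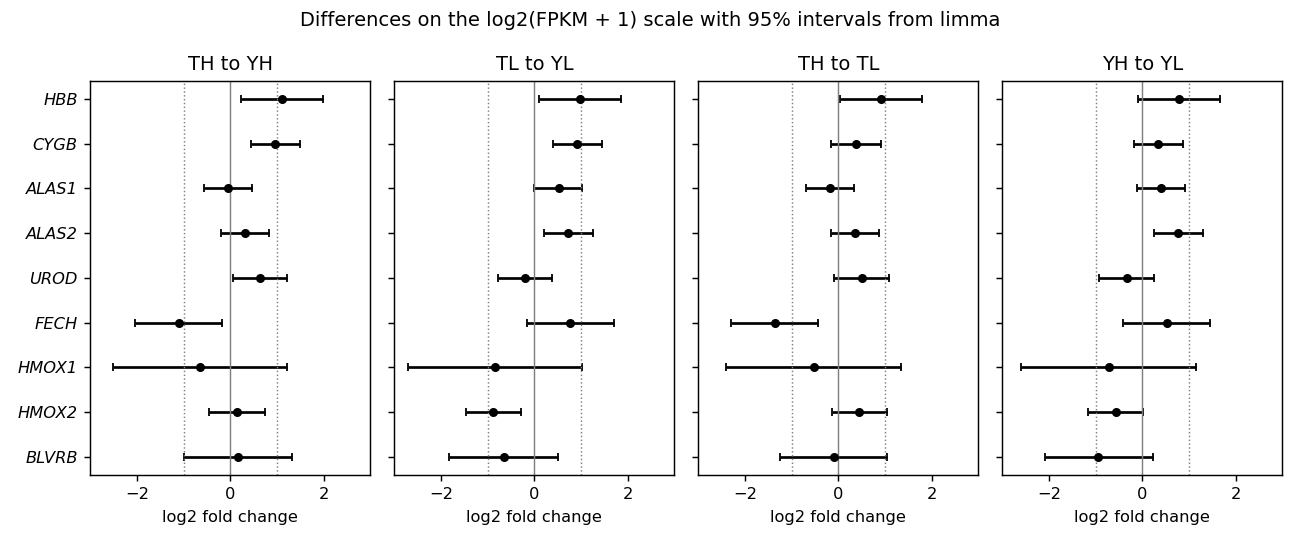
Log2 differences on the log2(FPKM + 1) scale (horizontal axes) of the 9 genes in the 4 comparisons, where positive values mean the first group is higher; points are limma estimates, bars 95% intervals and dotted lines a log2 fold change of 1 in size. The intervals of *HBB* and *CYGB* lie above 0 for both breed comparisons, and those of *HMOX1* are the widest.

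Genes that supply and store iron included 14 named genes, with 11 entries tested and 0 called. The most abundant were the ferritin genes *FTH1* and *FTL*, *ISCU*, a scaffold for iron-sulfur clusters, and *TFRC*, the transferrin receptor that takes iron into cells. *TFRC* was at 61 and 65.2 FPKM in TH and 68.8 and 65.6 FPKM in TL, but at 34.6 and 23.4 FPKM in YH and 35.5 and 27.1 FPKM in YL. Its level thus separated the breeds at both altitudes, with log2 differences of 1.12 (SE 0.26; limma, adjusted p = 0.141) between TH and YH and 1.09 (SE 0.26; adjusted p = 0.284) between TL and YL. With scaling to the FPKM sum the breeds overlapped in *TFRC* too. Between altitudes the differences were small, -0.09 in Tibetan and -0.12 in Yorkshire pigs, and the latter ran from -0.39 without YH1 to 0.15 without YH2.

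*FTH1*, the ferritin heavy chain, was at 3369 and 2056 FPKM in TH, 1669 and 1844 FPKM in TL, 1366 and 1534 FPKM in YH, and 2131 and 2862 FPKM in YL. Like *UROD*, it was higher in TH and YL than in TL and YH (interaction 1.36, SE 0.53; limma, adjusted p = 0.43). *FTL*, the light chain, was at 4404 FPKM in YL2 and between 397 and 615 FPKM in the other libraries.

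Of 13 genes of heme transport and scavenging, 9 were tested and 0 called, with median log2 differences of 0.30 between TH and YH, -0.11 between TL and YL, -0.08 between TH and TL and -0.22 between YH and YL. The most abundant was *PGRMC1*, which binds heme and was at 360 FPKM in YL2 and at 63.3 to 107 FPKM elsewhere. It was followed by *TSPO*, a porphyrin-binding protein of the outer mitochondrial membrane (mean 63.5 FPKM), *SLC25A38*, a mitochondrial glycine carrier (9.9 FPKM), and *ABCB6*, a porphyrin transporter (6.75 FPKM).

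Of the 12 regulators, 7 entries were tested and 0 called. *MAFK* and *NFE2L2*, whose products act on the *HMOX1* promoter, had means of 24 and 23 FPKM, and *CLPX*, which activates ALA synthase, 21.7 FPKM. *EIF2AK1*, the kinase that slows translation when heme is short, was at 4.65 and 6.49 FPKM in TH, 8.46 and 8.53 FPKM in TL, 8.71 and 9.27 FPKM in YH, and 7.45 and 7.01 FPKM in YL. It was lowest in TH, as *FECH* was, with a log2 difference of -0.62 from YH (SE 0.21; limma, adjusted p = 0.242) and -0.55 from TL (adjusted p = 0.399).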

How the data were processed

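The authors aligned reads to Sscrofa10.2 with TopHat 2.0.9 and computed FPKM with Cufflinks. Beside each deposited FPKM stands a signal that the authors named a count, scaled by a factor per library. Divided by its smallest step, 99.74% to 99.84% of its values under 50 reads were whole within 0.05, and the reads given were obtained so. Columns with the authors' group means and ratios were not used. Here, limma 3.58.1 (R 4.3.3) modelled log2(FPKM + 1) with a term per group and a variance trend over all 8 libraries; 11913 genes reached 1 FPKM in 2 or more libraries and were tested. P-values (two-sided) were adjusted over all of them with the Benjamini-Hochberg method. This scale understates differences of genes at a few FPKM. With 2 libraries per group, the p-values rest on variances shared across genes. The members and lists of genes were chosen with earlier results of these data known. Every member was named, with at most 4 genes of each pathway list by mean FPKM and the 3 genes most like *HBB* and *HMOX1* among genes with a mean of at least 10 FPKM. The fit was tested on simulated data. Alternatives were another pseudocount, no filter, other scalings, a replicate block, fewer libraries and other thresholds. Figures were drawn with matplotlib 3.10.9. The list of other heme synthesis enzymes is not reported here in full.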

Additional observations from a re-analysis of the deposited data

How the results depend on the processing

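The number of the 9 genes called was 0 in all 5 comparisons under every alternative run: a pseudocount of 0.1, no filter, both scalings, the replicate block, only the 4 libraries compared (not possible for the interaction), the scaled read values (chosen after seeing the data), each library left out, and looser thresholds (0.05 for the adjusted p, or 0.01 for the p before adjustment), always with a log2 fold change over 1. Of 252 fold changes in the 4 pairwise comparisons under settings that keep all libraries or all of those compared, 244 kept their direction. The other 8 turned when each library was divided by its FPKM sum, which moved the log2 differences of all genes by a median of -0.57 between TH and YH and of -0.34 between TH and TL. These were -0.27 (*UROD*), -0.77 (*HMOX2*), -0.26 (*ALAS2*) and -0.54 (*BLVRB*) between TH and YH, and -0.09 (*UROD*), -0.15 (*HMOX2*), -0.05 (*ALAS2*) and -0.15 (*CYGB*) between TH and TL. Relative to that shift, 7 of the 8 had their first sign: 0.30 (*UROD*), 0.31 (*ALAS2*) and 0.03 (*BLVRB*) between TH and YH, and 0.25 (*UROD*), 0.18 (*HMOX2*), 0.28 (*ALAS2*) and 0.19 (*CYGB*) between TH and TL. The exception was *HMOX2* between TH and YH (-0.21). Under the same scaling the TH to YH differences of *HBB*, *CYGB* and *TFRC* kept their sign but were 0.12, 0.08 and 0.16, or 0.69, 0.64 and 0.73 relative to the shift. The interactions were not counted among these, and under this scaling those of *HBB* and *CYGB* turned to -0.51 and -0.39. Of 288 values with a library left out, 281 kept their direction, and the ranges of the results that turned were as follows. The TH to YH difference ran from -0.09 to 0.39 in *HMOX2* and from -0.04 to 0.38 in *BLVRB*, that of TH to TL from -0.29 to 0.08 in *BLVRB*, that of TL to YL from -1.45 to 0.13 in *BLVRB* and from -2.12 to 0.44 in *HMOX1*, and that of YH to YL from -2.0 to 0.56 in *HMOX1*. Over all genes, 305 were called between TL and YL without YL1, against 1 with it, 305 between YH and YL against 0, and 152 in the interaction against 4. Between TH and TL, 13 genes were called without either YL library and 11 with only the 4 libraries compared, against 6. Scaling to the FPKM sum called 38, 97, 30 and 69 genes in the 4 comparisons and 40 in the interaction, and the scaled read values called 0 in each. Same-numbered libraries of different groups shared only a number (correlations of their deviations from -0.08 to 0.12), and the replicate block called 0 of the 9 genes. Count-based tests with edgeR and DESeq2 were not run, since whole counts could not be established for every value. Depth limits *HMOX1* most, with 19 to 449 reads.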
